A study of Mus musculus with 8 samples.

Results

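Genes that mark macrophages were followed in whole testis of Ctcfl mutant and wildtype mice at postnatal day 23. The 10 genes were Csf1r, Csf1, Emr1 (now Adgre1), Cd68, Mrc1, Cd163, C1qa, C1qb, Lyz2 and Cx3cr1, and every probe set that the deposited table assigned to one of them by symbol was taken. All 10 genes were found, with 18 probe sets among the 45101 of the table. Each testis RNA was read on its own Affymetrix Mouse430_2 array, and the 8 arrays fell into 5 of wildtype (replicates 1, 2, 4, 6 and 7) and 3 of mutant testis (replicates 3, 5 and 8). The labels call the controls wildtype, whereas the study's text describes them as Ctcfl del/+ littermates of the Ctcfl del/del mutants, so that the controls may carry one deleted allele. The del allele lacks the first exons, which were removed by a chicken actin-driven Cre, and the deletion is therefore not limited to one cell type. The labels do not state whether the samples came from separate animals, and p-values measure only the spread between these samples.

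Testis macrophages lie in the interstitium, next to Leydig cells, and on the wall of the seminiferous tubules. Their survival depends on the receptor tyrosine kinase CSF1R and its ligand CSF1, and they clear dying cells by phagocytosis, for which they carry scavenger receptors, lysosomal enzymes and complement C1q. CTCFL itself is a zinc finger protein of male germ cells, a paralog of CTCF, whereas the genes followed here were chosen for macrophages. Whole testis is a mixture of cells, and the arrays do not show which cells a transcript came from. Fewer macrophages and less RNA per macrophage cannot be told apart either.

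Levels are log2 values as the authors normalised them, and differences are mutant minus wildtype on the log2 scale. Array medians ran from 6.40 to 6.45. A pair of arrays, wildtype replicate 7 and mutant replicate 8, lay apart in a principal component analysis, with scores of 40.2 and 38.2 on a first component of 44.9% of the variance where the remaining 6 scored -24.8 to -3.10, and results are also given with this pair as a block or left out. Levels of different probe sets were not read as relative amounts of transcript, because each hybridises differently. Where a level is set against the array medians or the median of all probe sets, this only places it on the scale. Level also served to choose the main probe set of a gene and the genes of a mean given below. The table held no detection calls, and the main probe set of Ins2, an insulin gene, read above the array medians (mean 7.15), so that a level alone does not show that a transcript is present. The targeted gene Ctcfl was not analysed here, and the genotypes are therefore taken from the labels without a check.

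None of the macrophage genes differed between mutant and wildtype testis beyond the spread between arrays. With limma and Benjamini-Hochberg adjustment over all 45101 probe sets, 0 of the 18 macrophage probe sets passed an adjusted p of 0.05, as did 0 of all probe sets (0%), and every adjusted p was 1.0. At an unadjusted p of 0.05 the count was also 0 of 18, against 3.47% of all probe sets, and the smallest unadjusted p was 0.237 by limma, at a second Csf1 probe set. In 0 of 18 did the mutant values lie wholly above or below the wildtype values, against 2.70% of all probe sets. The differences ran from -0.15 to 0.15 with a median of 0.012, beside 0.0032 for all probe sets, and 14 were above 0 and 4 below. In 18 of 18 the values within one genotype spanned more than the difference between genotypes, as in 99.2% of all probe sets.

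**Figure D1:**
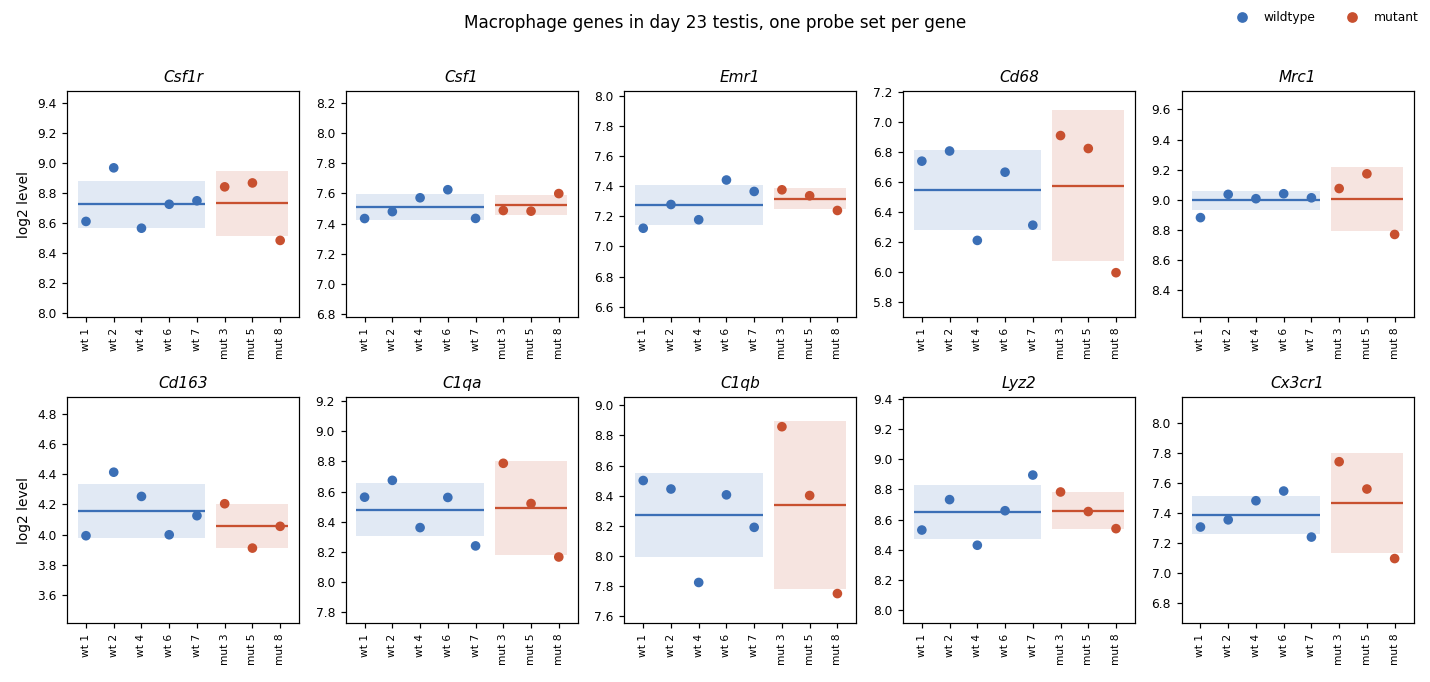
Log2 level of the main probe set of each of the 10 macrophage genes on every array, with wildtype replicates in blue and mutant replicates in orange; lines are group means and shaded bands 1 SD, and every panel spans the same height on its own axis. In all 10 panels the groups overlap, and Cd68 and C1qb spread most, with mutant replicate 8 lowest at 6.0 and 7.75.

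The ligand and receptor of the CSF1 pathway had means that lay close together in both genotypes. Csf1r, the receptor on which macrophages depend, read 8.61, 8.97, 8.57, 8.73 and 8.75 in wildtype replicates 1, 2, 4, 6 and 7 and 8.84, 8.87 and 8.49 in mutant replicates 3, 5 and 8 (probe set 1419872_at). The highest array was wildtype replicate 2 and the lowest mutant replicate 8, so that the mutant values fell within and below those of wildtype. The means were 8.72 ± 0.16 (SD, n = 5) and 8.73 ± 0.21 (SD, n = 3), a difference of 0.0073 (SE 0.12, 95% interval -0.25 to 0.26, limma adjusted p = 1.0). Its other probe sets, 1419873_s_at and 1423593_a_at, differed by 0.011 and 0.083.

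Csf1, the ligand, is made by cells around the macrophages rather than by macrophages alone. Its main probe set, 1425154_a_at, read 7.43, 7.48, 7.57, 7.62 and 7.43 in wildtype and 7.49, 7.48 and 7.60 in mutant, with all mutant values inside the wildtype range. The difference was 0.014 (SE 0.071, 95% interval -0.15 to 0.17, limma adjusted p = 1.0), the smallest SE among the 18. The other Csf1 probe sets differed by 0.025 (1460220_a_at), -0.062 (1448914_a_at) and -0.13 (1425155_x_at), so the probe sets of this gene did not share a sign. Without mutant replicate 5, 1425155_x_at differed by -0.23 and passed the unadjusted threshold of 0.05, in a fit where 2.71% of all probe sets passed it.

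Cx3cr1, the fractalkine receptor of monocytes and macrophages, gave the largest positive difference among the 18. Main probe set 1450020_at, whose symbol field also holds 2 gene models not matched to RefSeq, read 7.31, 7.35, 7.48, 7.55 and 7.24 in wildtype and 7.74, 7.56 and 7.10 in mutant. The mutant arrays thus held both the highest values, on replicates 3 and 5, and the lowest, on replicate 8. The difference was 0.080 (SE 0.14, 95% interval -0.22 to 0.38, limma adjusted p = 1.0). The other probe set, 1450019_at, read 4.93, 5.11, 5.42, 5.02 and 5.11 against 5.47, 5.43 and 4.89, with the same order of the mutant arrays and a difference of 0.15.

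The difference at Cx3cr1 turned on which mutant arrays were in the fit. Without mutant replicate 3 that of the main probe set was -0.057. Without mutant replicate 8, the differences of the main and the other probe set were 0.26 (SE 0.10) and 0.33 (SE 0.12), with unadjusted p of 0.0287 and 0.0227 by limma, where 5.87% of all probe sets passed that threshold. Adjusted p for both was 0.83 by limma. Leaving out wildtype replicate 7 as well gave 0.23 and 0.33, both past the unadjusted threshold in a fit where 6.55% of all probe sets passed it, with adjusted p of 0.76 by limma. Cx3cr1 was therefore not called in any fit after adjustment.

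Surface receptors of resident macrophages did not pass the test either. Emr1 encodes F4/80, the adhesion-type receptor most used to mark mouse macrophages, and read 7.12, 7.28, 7.18, 7.44 and 7.37 in wildtype and 7.38, 7.34 and 7.24 in mutant (1451161_a_at). All mutant values lay inside the wildtype range, with means of 7.28 ± 0.13 (SD, n = 5) and 7.32 ± 0.071 (SD, n = 3). The difference was 0.041 (SE 0.086, 95% interval -0.15 to 0.23, limma adjusted p = 1.0).

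Mrc1, the mannose receptor CD206 of interstitial macrophages, had the smallest wildtype SD of the 10 main probe sets, at 0.065. It read 8.88, 9.04, 9.01, 9.04 and 9.01 in wildtype and 9.07, 9.17 and 8.77 in mutant (1450430_at). The mutant arrays lay on both sides of the wildtype values, replicates 3 and 5 above and replicate 8 below. The difference was 0.010 (SE 0.094, 95% interval -0.20 to 0.22, limma adjusted p = 1.0).

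Cd163, the scavenger receptor for haemoglobin bound to haptoglobin, was the only main probe set below the median level of all probe sets. It read 3.99, 4.41, 4.25, 4.0 and 4.13 in wildtype and 4.20, 3.91 and 4.05 in mutant (1419144_at). The lowest array was mutant replicate 5 and the highest wildtype replicate 2, and the difference was -0.10 (SE 0.11, 95% interval -0.35 to 0.15, limma adjusted p = 1.0). Among the 10 main probe sets this was the only negative difference.

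Cd68 and C1qb varied most from array to array among the main probe sets of the 10 genes. Cd68, a glycoprotein of the lysosome membrane of phagocytes, read 6.74, 6.81, 6.21, 6.67 and 6.31 in wildtype and 6.91, 6.82 and 6.0 in mutant (1449164_at). Both ends of this range of 0.91 were mutant arrays, with replicate 3 highest and replicate 8 lowest. The means were 6.55 ± 0.27 (SD, n = 5) and 6.58 ± 0.50 (SD, n = 3), a difference of 0.029 (SE 0.21, 95% interval -0.45 to 0.51, limma adjusted p = 1.0).

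C1qa and C1qb encode chains of C1q, the recognition unit of the classical complement pathway, which tissue macrophages make. C1qa read 8.56, 8.67, 8.36, 8.56 and 8.24 in wildtype and 8.79, 8.52 and 8.17 in mutant (1417381_at), a difference of 0.012 (SE 0.14, 95% interval -0.31 to 0.33, limma adjusted p = 1.0). C1qb read 8.50, 8.44, 7.82, 8.41 and 8.19 in wildtype and 8.86, 8.40 and 7.75 in mutant (1417063_at). In both genes mutant replicate 3 was the highest array and mutant replicate 8 the lowest, and for C1qb these lay 1.11 apart. The difference of C1qb was 0.064 (SE 0.23, 95% interval -0.45 to 0.58, limma adjusted p = 1.0). Its other probe sets differed by 0.012 (1434366_x_at) and -0.15 (1437726_x_at), and the latter spanned 1.22 among the arrays, from 7.69 on mutant replicate 3 to 6.46 on mutant replicate 8. The gene of the third chain, C1qc, followed the same arrays, with 8.22 on mutant replicate 3 and 7.39 on both wildtype replicate 4 and mutant replicate 8.

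The promoters of Cd68 and C1qb are shown because both genes were highest and lowest on the same arrays. C1qa and Cx3cr1 had the same highest and lowest arrays, and their promoters are not shown. The sequences are from RefSeq (GRCm38.p6) and run from 250 bases before to 50 bases after the start of the gene, at chr11:69666121-69666420 for Cd68 and chr4:136886151-136886450 for C1qb, both on the minus strand. Capitals mark GAGGAA or its reverse complement TTCCTC, the core bases of sites of the myeloid factor PU.1 (gene Spi1).
Cd68: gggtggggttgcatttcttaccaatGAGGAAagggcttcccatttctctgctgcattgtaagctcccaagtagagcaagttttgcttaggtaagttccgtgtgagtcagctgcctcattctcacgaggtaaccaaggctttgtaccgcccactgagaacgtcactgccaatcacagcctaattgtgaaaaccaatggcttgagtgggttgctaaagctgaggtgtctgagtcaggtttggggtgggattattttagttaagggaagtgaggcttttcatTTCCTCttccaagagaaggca
C1qb: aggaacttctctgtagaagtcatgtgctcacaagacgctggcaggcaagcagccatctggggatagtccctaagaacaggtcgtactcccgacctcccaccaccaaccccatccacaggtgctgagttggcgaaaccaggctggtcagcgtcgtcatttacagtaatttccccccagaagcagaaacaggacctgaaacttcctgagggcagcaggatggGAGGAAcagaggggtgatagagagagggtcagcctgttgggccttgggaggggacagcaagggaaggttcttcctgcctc
Cd68 held the motif 2 times, at -225 and 30 from the start, and C1qb once, at -30. Of the 7 member promoters used, 3 held it (Cd68, C1qb and Mrc1, the last at -180, -167 and -35), beside 28.3% of all 32851 promoters of this length. It occurred 0 times in the promoter of Cx3cr1, which shared the highest and lowest arrays of Cd68 and C1qb, and C1qa was not among the 7. Spi1 itself read 6.53, 6.45, 6.69, 6.65 and 6.39 in wildtype and 6.62, 6.46 and 6.41 in mutant, a difference of -0.048 (SE 0.088). A match of these letters is a description of the sequence and no evidence of binding.

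Lyz2, the lysozyme of macrophages and other myeloid cells, had nearly equal means in the genotypes. It read 8.53, 8.73, 8.43, 8.66 and 8.90 in wildtype and 8.78, 8.65 and 8.54 in mutant (1423547_at), with all mutant values inside the wildtype range. The difference was 0.0093 (SE 0.11, 95% interval -0.23 to 0.25, limma adjusted p = 1.0). Unlike Cd68 and C1qb, Lyz2 was highest on wildtype replicate 7.

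Lyz2 has a close neighbour, Lyz1, and the promoters of both are shown because the array has a probe set listed for both. They lie at chr10:117282223-117282522 (Lyz2) and chr10:117292819-117293118 (Lyz1), on the minus strand, and neither holds GAGGAA or TTCCTC. Shorter or variant PU.1 sites were not searched for.
Lyz2: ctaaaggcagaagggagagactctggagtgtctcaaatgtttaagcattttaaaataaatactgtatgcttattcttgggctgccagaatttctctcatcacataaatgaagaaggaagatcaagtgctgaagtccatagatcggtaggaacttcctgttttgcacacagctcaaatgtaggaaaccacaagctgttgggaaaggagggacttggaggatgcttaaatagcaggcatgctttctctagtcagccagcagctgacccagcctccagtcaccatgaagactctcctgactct
Lyz1: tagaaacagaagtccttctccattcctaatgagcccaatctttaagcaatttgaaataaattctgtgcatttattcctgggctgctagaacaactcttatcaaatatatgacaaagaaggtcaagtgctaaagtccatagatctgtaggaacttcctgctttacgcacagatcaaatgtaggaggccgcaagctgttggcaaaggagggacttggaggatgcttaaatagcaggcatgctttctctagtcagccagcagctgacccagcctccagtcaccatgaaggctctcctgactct
Aligned without gaps, 201 of 300 bases were identical (67.0%), but 99 of the last 100 (99.0%), which hold the start of the transcript. Lyz1 read 8.94, 9.28, 8.82, 9.08 and 9.38 in wildtype and 9.20, 9.13 and 8.93 in mutant (1436996_x_at), a difference of -0.013. Its highest array was the same as that of Lyz2, wildtype replicate 7, and its lowest was wildtype replicate 4, also as in Lyz2. Values of the pair are uncertain, since the files do not show how far each probe set hybridised with the other transcript. A further probe set listed for both genes, 1450822_at, lay between 4.07 and 4.58 and was not counted among the 18.

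**Figure D2:**
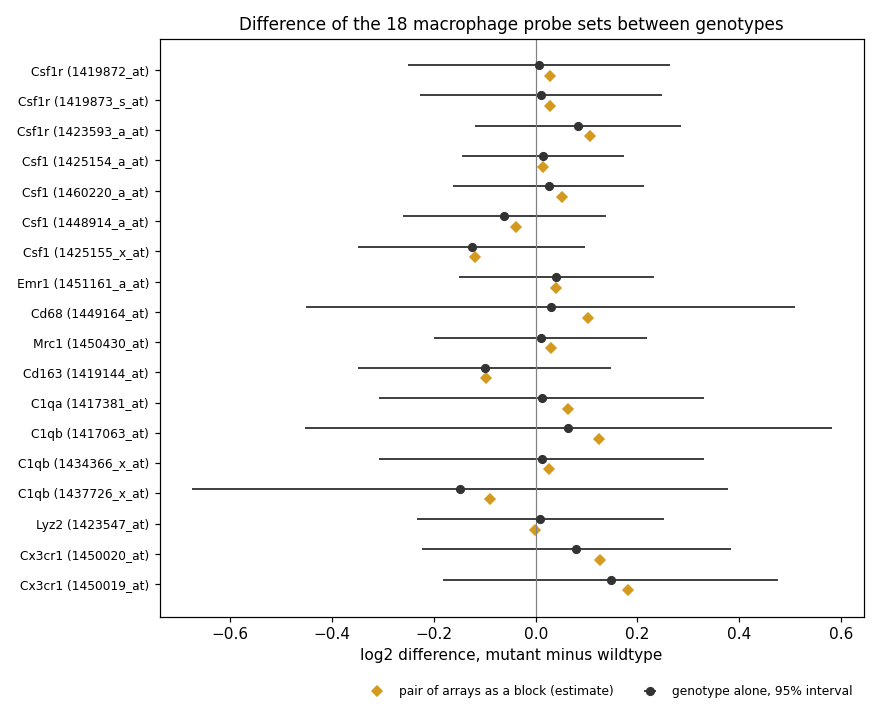
Log2 difference, mutant minus wildtype, of each of the 18 macrophage probe sets; black points are estimates by genotype alone with their 95% intervals, and gold diamonds are estimates with wildtype replicate 7 and mutant replicate 8 as a block. All 18 intervals include 0, and the estimates run from -0.15 (C1qb, 1437726_x_at) to 0.15 (Cx3cr1, 1450019_at).

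The macrophage genes varied with the array more than with the genotype. Mutant replicate 8 was the lowest of the 8 arrays for 12 of the 18 probe sets, while it was lowest for 17.2% of all probe sets. Mutant replicate 3 was the highest for 9 of the 18, against 13.6% of all probe sets. The median span over the 8 arrays was 0.474 for the macrophage probe sets and 0.377 for all probe sets. With wildtype replicate 7 and mutant replicate 8 as a block, the median difference was 0.029 (0.0058 for all probe sets), 13 of 18 were above 0, and 0 of 18 passed an unadjusted p of 0.05 in a fit where 5.86% of all probe sets did. The smallest unadjusted p with this block was 0.189 by limma.

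The mean of 8 macrophage genes, each centred on its own mean over the arrays, put the arrays in order. Csf1 was left out of it as a ligand and Cd163 for its low level. In mutant replicates 3, 5 and 8 it was 0.24, 0.11 and -0.30. In wildtype replicates 1, 2, 4, 6 and 7 it was -0.021, 0.11, -0.17, 0.077 and -0.053. The mutant arrays were thus at both ends, with all wildtype arrays between.

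Most of the genes followed this order, some only in part. Pearson's r of each gene with the mean of the other members over the 8 arrays was 0.90 for Cd68, 0.89 for C1qb, 0.86 for C1qa, 0.82 for Csf1r, 0.72 for Mrc1, 0.71 for Cx3cr1, and 0.48 for both Emr1 and Lyz2. It was 0.092 for Cd163 and -0.38 for Csf1. Over the 6 arrays without wildtype replicate 7 and mutant replicate 8, r was 0.96 for Lyz2, 0.44 for Mrc1 and 0.45 for Cx3cr1. The points share RNA samples and array normalisation, and the coefficients are descriptions over few arrays.

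The 8 genes whose levels were most like that mean over all arrays were Fuca1 (r = 0.97), Akr1cl (0.97), Ctss (0.97), Slc25a4 (0.96), 2010007H06Rik (0.96), D230040A04Rik (0.96), Ctsz (0.96) and Rac1 (0.96), and over the 6 arrays r stayed between 0.92 and 0.97. Fuca1, Ctss and Ctsz encode lysosomal enzymes, a fucosidase and cathepsins S and Z. Ctss, the cathepsin that trims the invariant chain of MHC class II in antigen-presenting cells, read 8.11, 8.31, 7.73, 8.21 and 8.06 in wildtype and 8.43, 8.13 and 7.49 in mutant. Like C1qa and C1qb it was highest on mutant replicate 3 and lowest on mutant replicate 8, and its difference between genotypes was -0.068 (SE 0.20).

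**Figure D3:**
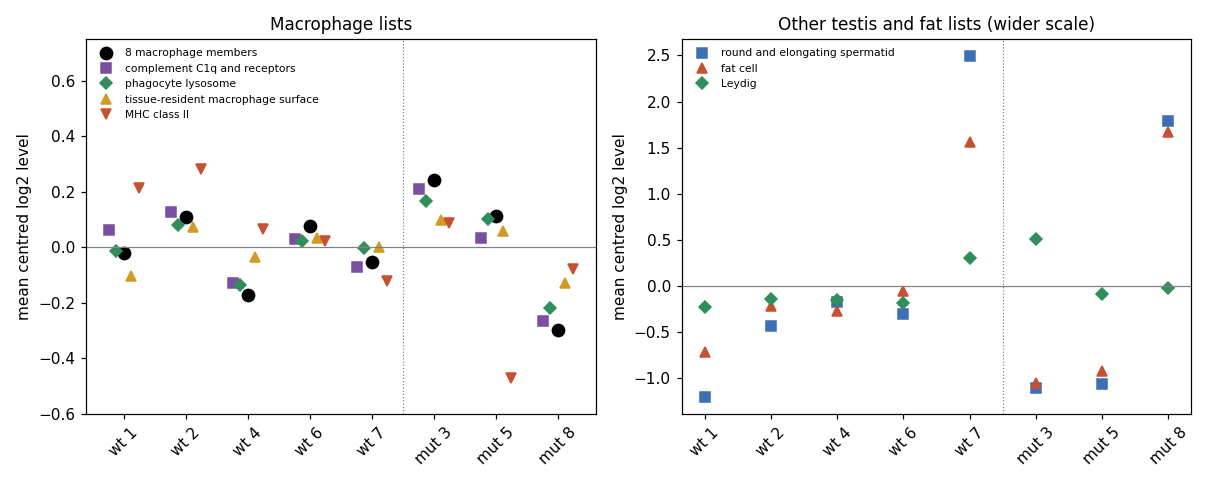
Mean centred log2 level per array of the 8 macrophage genes and of 4 macrophage gene lists (left), and of spermatid, fat cell and Leydig markers on a wider scale (right); the dotted line parts wildtype from mutant. The 8 macrophage genes run from 0.24 on mutant replicate 3 to -0.30 on mutant replicate 8, while spermatid and fat cell markers are high on wildtype replicate 7 and mutant replicate 8 alone.

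Markers of other cells moved with the arrays too. The mean centred level of 5 round and elongating spermatid genes reached 2.50 and 1.79 on wildtype replicate 7 and mutant replicate 8 and lay between -1.20 and -0.17 elsewhere. That of 4 fat cell genes reached 1.56 and 1.67 on the same pair and lay between -1.05 and -0.053 elsewhere. Genes of Leydig cells, which make testosterone, ran from -0.23 to 0.31 in wildtype and from -0.092 to 0.51 in mutant, highest on mutant replicate 3, the array on which the macrophage genes were highest. Of 8 Leydig probe sets, 2 were higher in mutant at an unadjusted p of 0.05, where 1.76% of all probe sets were, and 0 passed after adjustment with limma. Sertoli cell genes were also highest on mutant replicate 3 (0.13) and lay between -0.15 and 0.069 elsewhere. Spermatocyte genes were lowest on mutant replicate 3 (-0.21) and highest on wildtype replicate 7 (0.23). By genotype alone, 1 of their 4 probe sets was lower in mutant at that threshold, where 1.70% of all probe sets were. With the pair as a block 3 of 4 were lower, as were 7 of 8 spermatid and 2 of 7 fat cell probe sets, and 0 of these were higher. In that fit 5.86% of all probe sets passed in either direction. The part of these cells in the order of the macrophage genes was not tested. Lists for T cells, B cells, neutrophils, mast cells and dendritic cells stayed between -0.18 and 0.18 on every array, and with limma 0 of their probe sets passed an adjusted p of 0.05.

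Wider lists of macrophage biology, 81 genes with the members included, gave the same picture. Of these, 79 had a probe set of their own, 149 in all, and 0 passed an adjusted p of 0.05 with limma. At an unadjusted p of 0.05, 0 were higher and 4 lower in mutant, where 1.76% and 1.70% of all probe sets were, and the median difference was 0.0073. With the pair as a block, 3 of the 149 were higher and 5 lower at that threshold, which 5.86% of all probe sets passed in either direction. The higher ones were 1 probe set each of the complement receptor C3ar1, the protease Ctsb and the transcription factor Maf. The lower ones were 3 of MHC class II, 1 of the cytokine Tgfb1 and 1 of the myeloid gene Aif1, at -0.30 (SE 0.10).

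In the CSF1 axis by genotype alone, 0 of 16 probe sets passed the unadjusted threshold, with Cebpa, a myeloid transcription factor, at 0.022 (SE 0.078). Among C1q and complement receptors it was 0 of 13, with C1qc at 0.094 (SE 0.18). In the phagocyte lysosome it was 0 of 19, where Lamp1, a lysosome membrane protein of all cells, differed by -0.024 (SE 0.061), and the lysosomal proteases Ctsb and Ctsd by 0.12 (SE 0.11) and 0.026 (SE 0.080).

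Among surface and regulator genes of tissue-resident macrophages, 0 of 31 probe sets passed the unadjusted threshold. Sepp1, now Selenop, which encodes a selenium carrier protein, differed by -0.00088 (SE 0.15), and Cbr2, a carbonyl reductase, by 0.016 (SE 0.19). Timd4, Lyve1 and Marco, markers of some resident macrophages, read means of 4.29, 4.92 and 4.78, below the array medians. Most of this list read higher, and 12 of its 18 genes had a main probe set above the median level of all probe sets. Of the 29 probe sets for Fc receptors and myeloid signalling 0 passed, with Fcgr3, an activating IgG receptor, at -0.32 (SE 0.33), and Tyrobp, the adaptor DAP12, at -0.14 (SE 0.16). Fcgr3 read 10.58, 10.42, 10.51, 10.34 and 9.74 in wildtype and 10.61, 10.39 and 9.0 in mutant, lowest on wildtype replicate 7 and mutant replicate 8. Aif1, which encodes IBA1, was the other way round, at 9.48 and 9.22 on those arrays and 7.60 to 8.26 on the others. Its difference was -0.11 (SE 0.415) by genotype alone and -0.30 (SE 0.10) with the pair as a block, past the unadjusted threshold in the latter fit only. Ptprc, the pan-leukocyte antigen CD45, and Itgam, the integrin CD11b, read means of 4.0 and 3.92, below the array medians. These were their main probe sets, and another Ptprc probe set (1422124_a_at) read 5.11. Of the 13 genes of this list, 5 had a main probe set above the median level of all probe sets. For Fcgr3 and Aif1 the extreme values were on the pair of arrays that lay apart.

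Chemokine and monocyte genes gave 0 of 19 probe sets past the unadjusted threshold. The chemokine Cxcl12 differed by -0.13 (SE 0.16) and the monocyte receptor Ccr2 by -0.012 (SE 0.10). Cytokines gave 1 of 9, lower in mutant, at a Tgfb1 probe set (1445360_at) whose 3 mutant values lay below all wildtype values, with a difference of -0.21 (SE 0.074). The main Tgfb1 probe set (1420653_at) differed by 0.17 (SE 0.083), in the opposite direction, so that the direction of this gene depended on the probe set. Tnf and Il1b differed by 0.051 (SE 0.091) and -0.027 (SE 0.084).

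MHC class II genes, which peritubular macrophages and dendritic cells use to present antigen, had the most negative median difference of the 8 lists, with 0 probe sets past an adjusted p of 0.05 by limma. Of 13 probe sets 3 were lower at an unadjusted p of 0.05 by limma, where 1.70% of all probe sets were, and the median difference was -0.21. H2-Ab1, a beta chain, read 7.98, 8.06, 7.72, 7.58 and 7.83 in wildtype and 7.57, 7.17 and 7.61 in mutant (1450648_s_at), with an overlap between wildtype replicate 6 and mutant replicate 8. The difference was -0.39 (SE 0.13, limma adjusted p = 1.0). H2-Aa, an alpha chain, read 6.82, 7.05, 6.34, 6.43 and 6.14 against 6.68, 4.84 and 6.05 (1435290_x_at). Mutant replicate 5 lay far below the other arrays there, and the difference was -0.70 (SE 0.36).

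Cd74, the invariant chain that escorts class II molecules, read 7.77, 7.87, 7.54, 7.41 and 6.92 in wildtype and 7.69, 6.78 and 7.16 in mutant, a difference of -0.29 (SE 0.24). H2-Eb1, another beta chain, differed by -0.31 (SE 0.16), and H2-DMa, which helps to load peptides, by 0.18 (SE 0.15). Mutant replicate 5 was the lowest array for the main probe sets of H2-Aa, H2-Ab1, H2-Eb1 and Cd74, whereas another H2-Aa probe set that passed the unadjusted threshold (1452431_s_at) was lowest on mutant replicate 3, at 5.68 against 5.77 on mutant replicate 5. Without mutant replicate 5, 0 of 13 class II probe sets passed the unadjusted threshold, where 2.71% of all probe sets did. The median difference was then -0.061. On mutant replicate 5 the mean of the 8 macrophage genes was 0.11, so class II and the macrophage genes did not move together there.

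**Figure D4:**
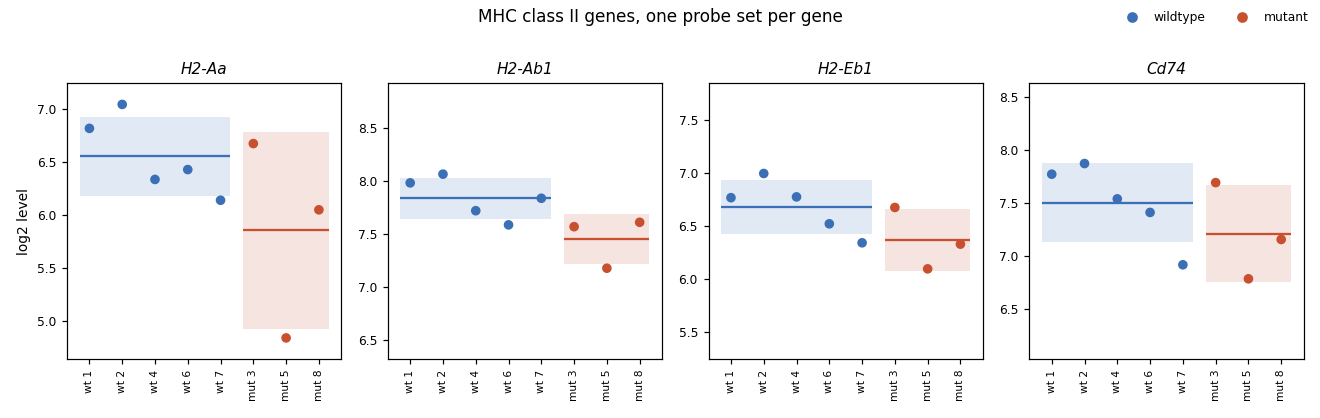
Log2 level of the main probe sets of H2-Aa, H2-Ab1, H2-Eb1 and Cd74 on every array, with wildtype in blue and mutant in orange, lines for group means and bands for 1 SD, and panels of equal height on their own axes. Mutant replicate 5 is the lowest array in all 4 panels, at 4.84, 7.17, 6.09 and 6.78.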

How the data were processed

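Affymetrix Mouse430_2 arrays held testis RNA of 5 wildtype and 3 mutant samples. The authors background-corrected them by RMA with quantile normalisation and deposited log2 levels of each probe set for every array. The version of RMA is not given in the sources used here. The same table held group means, log2 differences, fold values and p-values of the authors' own comparison, and further tables held their limma output; none of these were used.

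Genotype was tested in limma 3.58.1 under R 4.3.3 (lmFit, eBayes) over all 45101 probe sets, 64 controls included and with no filter, as a two-sided test, and p-values were adjusted by Benjamini-Hochberg. Intervals are 95% intervals from that fit, and arrays, not depth, limit its precision. Probe sets were named through Entrez IDs in RefSeq genes of GRCm38.p6, where 35498 of 38810 were found (91.5%), and 832 probe sets of several genes were assigned to none of them, with Cx3cr1 (1450020_at) kept since its further symbols were unmatched gene models. H2-DMb1 and Ly6c1 had only such shared probe sets. The main probe set of a gene carried no cross-hybridisation suffix where one existed, and then had the highest mean level. All 10 members were named, with up to 3 genes per list by mean level, Lyz1, the 8 genes most like the members, and any list gene past adjusted p of 0.05. Spi1, C3ar1, Maf, Ptprc, Itgam, H2-Aa, H2-Eb1, Timd4, Lyve1 and Marco were named after their values were seen, as was Ins2, and 1 list gene that the rule names is not reported here. The members and lists were chosen with earlier results of these data known, and the pair of arrays was defined from expression values, which no label names.

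Alternatives were leaving out each array, leaving out the pair or fitting it as a block, array weights, median centring, quantile normalisation once more, a robust prior with an intensity trend, variance not shared between probe sets, only probe sets above the median level, other probe sets of a gene, and 1 probe set per gene. The fit was tested on simulated data. Promoters for 7 of the 10 members were taken from a RefSeq promoter table. Python 3.11.15, numpy 2.4.6, pandas 2.3.3 and matplotlib 3.10.9 did the rest.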

Additional observations from a re-analysis of the deposited data

Results flagged for a closer look

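Mrc1 on wildtype replicate 1 read 8.88, apart from the other wildtype arrays, of which the nearest was at 9.01. Its gap took a share of 0.792 of the range of the wildtype group, above the critical value of 0.71 for 5 samples. Of 11 measures examined in this way, 1 stood out, where chance gives about 1 in 20, or 0.55.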

How the results depend on the processing

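No macrophage probe set passed an adjusted p of 0.05 in any of the alternatives, and the smallest adjusted p of a main probe set was 0.76, for Cx3cr1. Leaving out 1 array at a time moved the number of macrophage probe sets past an unadjusted p of 0.05 between 0 and 2 (1 without mutant replicate 5, 2 without mutant replicate 8), their median difference between -0.068 and 0.13 (the latter without mutant replicate 8), and the median of the wider lists between -0.030 and 0.026. The differences then ranged from -0.061 to 0.13 for Csf1r, -0.024 to 0.043 for Csf1, -0.14 to 0.32 for Cd68, -0.073 to 0.13 for Mrc1, -0.14 to 0.17 for C1qa, -0.20 to 0.36 for C1qb, -0.053 to 0.071 for Lyz2 and -0.057 to 0.26 for Cx3cr1, and each of these changed sign without at least 1 array. Without mutant replicate 3, which was high for many of the genes, Csf1r, Cd68, Mrc1, C1qa, C1qb, Lyz2 and Cx3cr1 were all below 0 (-0.048, -0.14, -0.024, -0.14, -0.20, -0.053 and -0.057) and the wider lists reached their lowest median. Csf1r, Cd68, Mrc1 and C1qa were also below 0 without mutant replicate 5, Csf1 without mutant replicate 8 or wildtype replicate 1 or 7, Csf1r, Mrc1 and Lyz2 without wildtype replicate 1, Csf1r, Cd68, C1qa, C1qb and Lyz2 without wildtype replicate 4, and Cd68 and C1qa without wildtype replicate 7. Emr1 stayed above 0 and Cd163 below 0 in every alternative run. Without both arrays that lay apart, 2 macrophage probe sets passed the unadjusted threshold, both of Cx3cr1, the median was 0.12 and Csf1 was at -0.043. Csf1 was also below 0 with array weights (-0.015) and at 1448914_a_at (-0.062) and 1425155_x_at (-0.13), as was Lyz2 with the pair as a block (-0.0023) and C1qb at 1437726_x_at (-0.15); the cause was not tested. The MHC class II count at an unadjusted p of 0.05 ranged from 0 to 5 of 13 when 1 array was left out. The share of all probe sets past that threshold is given in brackets. The count was 0 without mutant replicate 5 (2.71%), and 1 without wildtype replicate 1 (3.16%), 2 (2.78%) or 6 (3.12%). It was 5 without wildtype replicate 7 (3.59%), mutant replicate 3 (4.12%) or both arrays that lay apart (6.55%), and 6 with array weights (4.89%). Among probe sets above the median level it was 1 of 4 (3.14%). Without wildtype replicate 7, 4 of the 5 were lower in mutant, and in the other settings all those called were lower. These settings were run after the class II values were seen. With 5 and 3 arrays, standard errors of the 18 macrophage probe sets ran from 0.071 to 0.24, so differences of that size were not detectable. No paired analysis was run. The study's text describes littermates, but the replicate numbers run on through both genotypes and do not show which samples share a litter.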
